A study of Mus musculus with 28 samples.

Results

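The matrix metalloproteinase, ADAMTS and TIMP genes of the mouse were followed through the reprogramming of fibroblasts towards cardiomyocytes. Members were all genes whose symbol in the array annotation was Mmp or Timp followed by a digit, or began with Adamts. They numbered 49 of 19938 named genes: 22 matrix metalloproteinases (MMPs), 4 tissue inhibitors of metalloproteinases (TIMPs), 18 ADAMTS proteases and 5 ADAMTS-like genes. Where a gene had several probe sets, the one of highest mean was read.

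MMPs are zinc-dependent proteases, secreted or held at the cell surface, that cut collagens, gelatins, proteoglycans and other parts of the extracellular matrix, and TIMPs bind their active sites and block them. ADAMTS proteases carry thrombospondin repeats and fall into classes that cleave large proteoglycans, process procollagens or act on fibrillar glycoproteins, whereas ADAMTS-like proteins share the repeats but lack the protease domain. In fibroblasts and in heart these genes are known for matrix turnover during development, injury and scarring.

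The data were 28 expression arrays of total RNA from mouse embryonic fibroblasts (MEFs), all collected at day 21. The control, 0F, was MEFs given no factor and, per the extraction protocol, no virus (3 arrays). All other cells received a reverse tetracycline transactivator (rtTA) and a TroponinT-GCaMP-Zeo reporter by lentivirus, doxycycline-inducible factor viruses, a reprogramming medium with 2 μg/mL doxycycline, and 300 μg/mL zeocin for the last 7 days, so that cells with an active troponin T reporter were selected. GMT cells received GATA4, MEF2C and TBX5 (5 arrays). NGMT cells received NKX2.5 besides (6 arrays), HGMT cells Hand2 in place of NKX2.5 (3 arrays), and HNGMT cells both (3 arrays). DMT cells received myocardin (MYOCD), MEF2C and TBX5 (4 arrays), and DMNT cells the same with NKX2.5 (4 arrays). The source label calls all samples zeocin-selected cells, 0F included, and titles and protocol were followed here. Any comparison with 0F therefore spans factors, viruses, selection and, as far as the labels tell, medium and doxycycline, which cannot be told apart.

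Values were log2 signals, and their distributions placed the arrays in 3 series that were compared only within themselves, because the distributions differed between them (array medians of 6.68 to 6.75, 6.86 to 6.95 and 7.64 to 7.65). Series 1 held 0F, 2 GMT and 3 NGMT arrays. Series 2 held 3 arrays each of GMT, NGMT, HGMT, HNGMT and DMT. Series 3 held DMT replicate 4 and the 4 DMNT arrays, and pairs of its arrays shared 17.98% to 28.84% of their values exactly, so its spread cannot be read as that of independent signals. HNGMT replicate 1 stood apart from its group (r = 0.9865 and 0.9842 with the other arrays, which had 0.9966 with each other). GMT replicate 5 did so to a lesser degree in series 2 (r = 0.9943 and 0.9953, against 0.9980 between the others). Genes were tested if they lay above the array median on at least 3 arrays. Of 10 cardiac muscle markers, 9 were higher in GMT than in 0F and none lower. On every 0F array 5 of the 10 lay below the array median. Those 5 were tested only through transduced groups, so that the filter favoured their rise. The 0F cells carried other cell types' markers: in GMT against 0F all 8 adipocyte markers tested were lower (median log2 difference -4.91), as were 10 of 11 macrophage markers (-2.81). Of the latter, Adgre1, C1qa, C1qc and Mrc1 lay above the array median on 0F arrays alone, and C1qb, Tyrobp and Laptm5 on 0F and some HNGMT arrays alone. None of these would have been tested without 0F, so that the filter favoured their fall. Of the fibroblast markers 8 of 10 were lower and 2 higher (median -0.56), of the cartilage markers 3 of 4 were lower (-0.66), and of the endothelial markers 1 of 2. All 6 endothelial markers listed lay below the array median on every GMT array. Mesothelial markers were higher for 5 of 6 genes (2.54), and of 5 smooth muscle markers 3 were higher and 1 lower (0.70). In each of these 2 lists, 2 markers lay below the array median on every 0F array and were tested only through transduced groups. The mean log2 signal of the 15 macrophage markers was 7.71 to 8.29 in 0F and 5.98 to 6.01 in GMT, and that of the 8 adipocyte markers reached 12.05 in 0F and 7.24 in GMT. Their part in the differences below was not tested. In such bulk RNA, fewer cells of a type and less RNA per cell cannot be told apart.

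Of the 49 genes, 32 lay above the array median on at least 3 arrays and were tested, and 27 of these lay above it on all 28 arrays. The other 17 lay above the median on no array and were not tested: Mmp1a, Mmp1b, Mmp7, Mmp8, Mmp12, Mmp20, Mmp21, Mmp24, Mmp25, Mmp27, Timp4, Adamts8, Adamts13, Adamts16, Adamts18, Adamts19 and Adamts20. Adamts14, Adamts15, Adamtsl2, Mmp10 and Mmp17 passed although they lay below the median on every array of at least 1 group, so a low value of theirs was in the range of the genes left out.

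The collagenase Mmp13, the stromelysins Mmp3 and Mmp10 and the inhibitor Timp1 rose in GMT and in NGMT against 0F, whereas most ADAMTS and ADAMTS-like genes that changed fell. In GMT against 0F, 23 of 32 tested members were called (limma, adjusted p under 0.05), 7 higher and 16 lower, where 56.5% of all 12211 genes tested were called, 34.2% higher and 22.3% lower. The median log2 difference was -0.39 over the tested members and 0.05 over all genes tested. Among the 27 members above the median on all arrays, 20 were called, 6 higher and 14 lower. A change of at least 2-fold was called in 11 members (4 higher and 7 lower) and in 11.4% of all genes. In NGMT against the same 0F arrays, 22 were called, 8 higher and 14 lower, where 58.2% of all genes were called, 34.9% higher and 23.3% lower. There 10 members (4 higher and 6 lower) and 10.3% of all genes were called with at least 2-fold, and the median difference was -0.13 over the tested members.

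**Figure D1:**
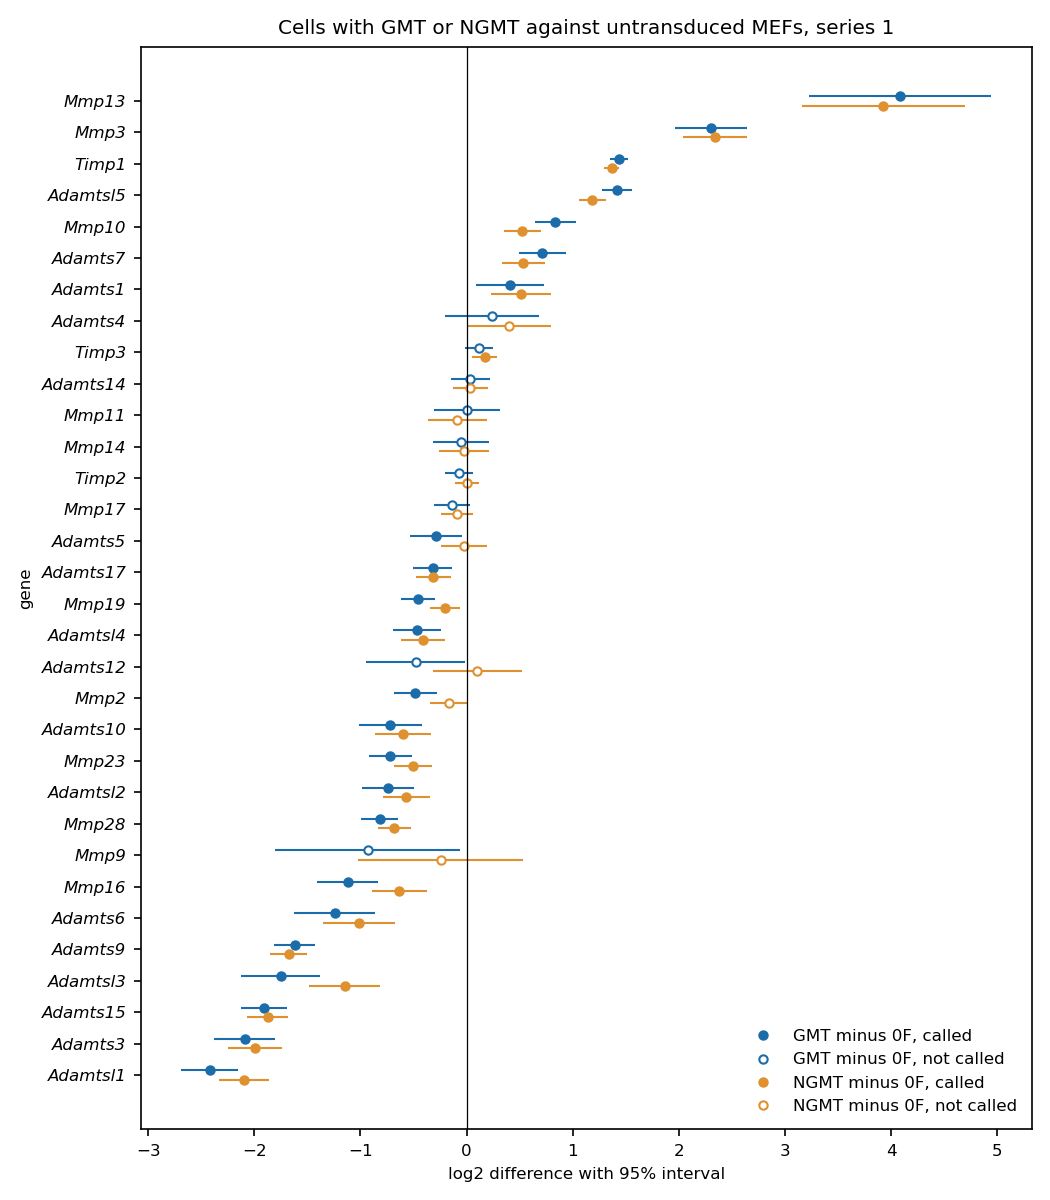
Log2 difference (x axis) with its 95% interval for each of the 32 tested genes (y axis), GMT minus 0F in blue and NGMT minus 0F in orange, series 1, both against the same 3 arrays of 0F; filled points were called at an adjusted p under 0.05. Mmp13 lies at 4.09 and 3.93, and Adamtsl1 at the other end at -2.42 and -2.10.

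Among the MMPs, Mmp13, the main interstitial collagenase of the mouse, gave the largest difference. Its log2 signal was 7.52, 7.37 and 7.37 in 0F, 11.21 and 11.80 in GMT, and 11.37, 11.64 and 11.02 in NGMT. All transduced arrays of series 1 lay more than 3 log2 units above every 0F array. The difference was 4.09 (SE 0.41, adjusted p = 8.93e-09 by limma, 17.0-fold) for GMT and 3.93 (SE 0.37, 2.48e-09, 15.2-fold) for NGMT. Mmp3, stromelysin-1, which degrades proteoglycans and fibronectin and activates other pro-MMPs, had 9.77, 9.79 and 9.92 in 0F, 12.10 and 12.17 in GMT, and 12.12, 12.10 and 12.30 in NGMT. Neither transduced group overlapped 0F, and Mmp3 was higher by 2.31 (SE 0.16, adjusted p = 1.74e-11, 4.94-fold) and 2.34 (SE 0.15, 1.62e-12). Mmp10, stromelysin-2, lay below the array median in 0F (6.29, 6.42 and 6.30) and was higher by 0.83 in GMT (7.21 and 7.12, adjusted p = 4.63e-08) and by 0.52 in NGMT (6.91, 6.77 and 6.89, adjusted p = 8.68e-06).

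These 3 genes lie in a run of 10 adjacent MMP genes on chromosome 9, in the order Mmp13, Mmp12, Mmp1b, Mmp3, Mmp1a, Mmp10, Mmp8, Mmp27, Mmp20 and Mmp7. They were the only genes of the run above the filter, and all 3 rose in both GMT and NGMT. Mmp10 lay below the array median on every 0F array and passed the filter only through groups where it is high, so that the filter favoured its rise. The other 7 stayed below the array median on all 28 arrays, with differences of group means from -0.42 (Mmp12, the macrophage elastase) to 0.34 (Mmp1a) in GMT. Mmp1a and Mmp1b are related genes, and whether their probe sets separate them was not tested.

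**Figure D2:**
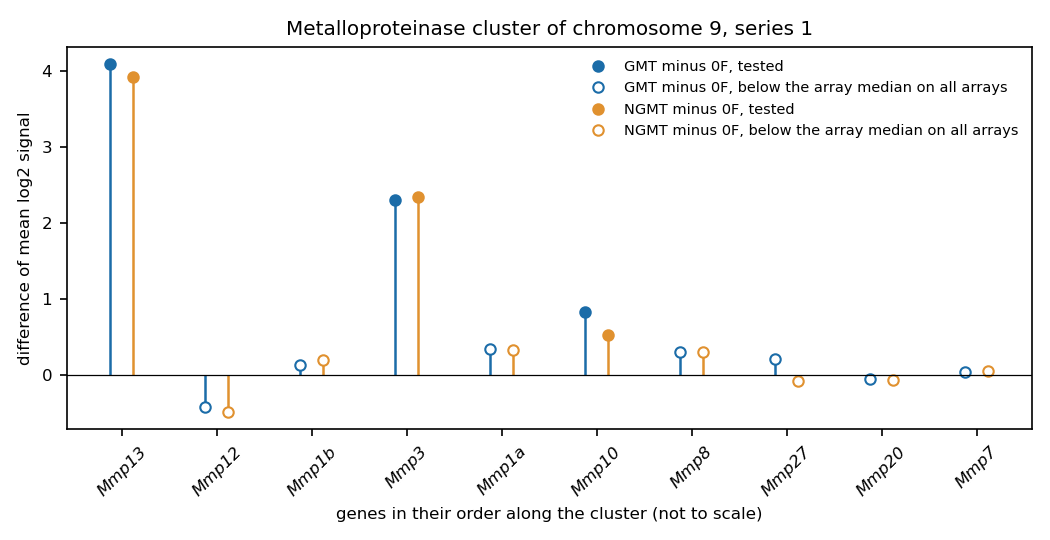
Difference of mean log2 signal against 0F (y axis) of the 10 adjacent MMP genes in their order along chromosome 9 (x axis, not to scale), for GMT (blue) and NGMT (orange) in series 1; open points were below the array median on all arrays and not tested. Mmp13, Mmp3 and Mmp10 rise at places 1, 4 and 6, with untested neighbours between them.

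AP-1 dimers of Fos and Jun proteins are textbook activators of collagenase and stromelysin promoters, so the bases ahead of the start sites of these genes are shown. RefSeq windows of 300 bases (250 before the annotated start, 50 from it on) on GRCm38.p6 were at hand for 34 of the 49 members and for all 10 genes of the run. The letters TGAGTCA or TGACTCA, which are each other's reverse complement, so that both strands were covered, stood in the windows of 7 of the 10 genes of the run (Mmp13, Mmp12, Mmp1b, Mmp3, Mmp1a, Mmp10 and Mmp7). None of the 24 other members with a window had them, and 5.2% of all 32851 windows did. For Mmp12 and for Mmp7 they stood in 1 of 2 windows each. The letters GATAAG, with CTTATC for the other strand, stood in 2 members (Mmp27 and Mmp7) and in 7.44% of all windows. The last 150 bases before the start are given for the 3 genes that rose and for Mmp12, which has the letters but was not above the filter, all on the plus strand, with the AP-1 letters in capitals. They are chr9:7272364-7272513 (Mmp13, first capital at -35 counted from the start base as 0), chr9:7445672-7445821 (Mmp3, -46), chr9:7502192-7502341 (Mmp10, -63) and chr9:7347224-7347373 (Mmp12, -44).
Mmp13: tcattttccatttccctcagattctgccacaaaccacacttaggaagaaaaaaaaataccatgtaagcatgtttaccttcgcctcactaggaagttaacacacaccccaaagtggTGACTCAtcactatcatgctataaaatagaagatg
Mmp3: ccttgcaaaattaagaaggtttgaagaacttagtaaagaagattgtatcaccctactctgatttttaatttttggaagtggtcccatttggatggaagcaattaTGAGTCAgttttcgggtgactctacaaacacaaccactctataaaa
Mmp10: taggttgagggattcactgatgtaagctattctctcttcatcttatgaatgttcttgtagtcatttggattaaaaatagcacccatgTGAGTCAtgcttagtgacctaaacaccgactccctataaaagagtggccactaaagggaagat
Mmp12: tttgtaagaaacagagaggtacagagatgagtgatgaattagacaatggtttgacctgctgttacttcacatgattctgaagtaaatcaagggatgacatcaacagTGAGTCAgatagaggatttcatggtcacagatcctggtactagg
The letters were thus found at a like distance in genes that rose and in Mmp12, whose mean was 0.42 lower in GMT than in 0F without a test. They are a description of these windows, and no binding was measured.

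The AP-1 and ETS factor genes rose almost throughout. In GMT against 0F, 11 of 13 were higher and none lower, led by Atf3 (1.95), Fosl1 (1.85) and Ets2 (1.57), and in NGMT 12 of 13 were higher, led by Fosl1 (2.13). Fosb and Etv4 lay below the array median on every 0F array, and of the other 11 factors 9 rose in GMT. Of the secreted inducers of MMPs that were tested, Tgfb1 (0.65) and Tgfb2 (0.45) lay above the median in 0F and rose in GMT. Il6 (4.75 to 4.81 in 0F) and Lif (5.95 to 6.15) lay below it on every 0F array and passed the filter only through other groups, so that they had to differ, and their differences of 5.65 and 2.97 start from values at which no test would have been made. Il1a, Il1b, Tnf and Osm were not above the filter.

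The remaining MMPs moved downwards or did not pass the test. Mmp16, a membrane-anchored MMP that can activate pro-MMP2, had 8.49, 8.33 and 8.26 in 0F, 7.31 and 7.16 in GMT, and 7.70, 7.84 and 7.63 in NGMT, with no overlap between the 3 groups. It was lower by 1.12 in GMT (log2 difference -1.12, SE 0.14, adjusted p = 2.77e-07) and by 0.63 in NGMT (-0.63, SE 0.13, 1.34e-04). Mmp28 (epilysin) fell by 0.82 in GMT and by 0.68 in NGMT, Mmp23 by 0.72 and 0.50, and Mmp19 by 0.46 and 0.20. The NGMT call of Mmp19 was lost without NGMT replicate 3 (adjusted p = 0.0780). Mmp2, gelatinase A and a leading gelatinase of fibroblasts, fell by 0.48 in GMT (adjusted p = 1.71e-04) and had -0.16 in NGMT (adjusted p = 0.113). Mmp14, the membrane protease that activates pro-MMP2, differed by -0.05 in GMT (95% interval -0.32 to 0.21) and was not called. Mmp9, gelatinase B, had 9.34, 9.43 and 9.41 in 0F but scattered in the transduced cells, with 8.37 and 8.55 in GMT and 8.31, 10.40 and 8.74 in NGMT. NGMT replicate 2 alone lay above 0F, and neither difference was called (-0.93, adjusted p = 0.0641, and -0.24, adjusted p = 0.61). Mmp11 and Mmp17 were not called in GMT either, nor were Adamts4 and Adamts14.

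Of the inhibitors, only Timp1 changed by a large amount. Timp1, a secreted inhibitor of most MMPs, had 11.16, 11.10 and 11.22 in 0F, 12.57 and 12.61 in GMT, and 12.57, 12.50 and 12.50 in NGMT. Every transduced array lay above every 0F array, and the difference was 1.43 (SE 0.04, adjusted p = 4.89e-19, 2.7-fold) for GMT and 1.37 (SE 0.04, 1.01e-19) for NGMT. Timp2, which takes part in the activation of pro-MMP2 at the cell surface, differed by -0.07 in GMT (95% interval -0.21 to 0.06) and by 0.00 in NGMT (-0.11 to 0.12). Timp3, which binds to the matrix and also inhibits ADAMTS proteases, had 0.12 in GMT (-0.02 to 0.25, adjusted p = 0.127) and rose by 0.17 in NGMT (adjusted p = 0.0147), a call lost without 0F replicate 2 (adjusted p = 0.0520). Timp4 lay below the median on all arrays, at 5.90 to 6.06 in 0F and 5.52 to 5.64 in GMT.

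The ADAMTS proteases mostly fell. Adamts3, which processes procollagen and activates VEGF-C, had 9.79, 9.62 and 9.61 in 0F, 7.63 and 7.53 in GMT, and 7.67, 7.74 and 7.64 in NGMT. It fell by 2.09 in GMT (SE 0.14, adjusted p = 4.48e-12) and had -1.99 in NGMT (SE 0.12, 1.32e-12). All 16 of its probe sets were lower in GMT, with differences from -2.97 to -1.24. Adamts15 and Adamts9, which cleave aggrecan and versican, fell alongside: Adamts15 had 7.64, 7.54 and 7.51 in 0F against 5.69 and 5.61 in GMT and 5.68, 5.66 and 5.73 in NGMT, the last values all below the array median. Its differences were -1.91 (SE 0.10) and -1.87 (SE 0.09), and it was tested only through 0F and some arrays with Hand2, where it is high. Adamts9 had 10.28, 10.22 and 10.19 in 0F, 8.66 and 8.57 in GMT, and 8.63, 8.50 and 8.53 in NGMT, a difference of -1.62 (SE 0.09, adjusted p = 3.07e-13) and -1.68 (SE 0.08, 1.68e-14). In both genes no transduced array came near a 0F array.

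Adamts6 and Adamts10 form a homologous pair linked to fibrillin microfibrils, and both fell. Adamts6 had 10.10, 10.03 and 9.73 in 0F, 8.80 and 8.62 in GMT, and 9.05, 9.14 and 8.63 in NGMT, lower by 1.24 (log2 difference -1.24, SE 0.18) and 1.01 (-1.01, SE 0.17). Adamts10 fell by 0.72 in GMT and by 0.60 in NGMT, and Adamts17 by 0.32 and 0.31, the GMT call of Adamts17 being lost without GMT replicate 2 (adjusted p = 0.0555). With the mean of its 5 probe sets, Adamts17 had -0.56 and -0.61. Against this trend, Adamts7 rose by 0.71 in GMT and 0.54 in NGMT, while its homologue Adamts12, which also cleaves cartilage oligomeric matrix protein, was not called in either. Adamts1, an early-response proteoglycanase, rose by 0.41 in GMT and 0.51 in NGMT, and its chromosome 16 neighbour Adamts5, a major aggrecanase, fell by 0.29 in GMT. Both GMT calls rest on few arrays: that of Adamts1 was lost without 0F replicate 1 (adjusted p = 0.0673), 0F replicate 2 (0.0584), GMT replicate 1 (0.169) or GMT replicate 2 (0.0580), and that of Adamts5 without any of the 3 replicates of 0F (0.0686 to 0.0759) or GMT replicate 2 (difference -0.17, 0.392).

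All 5 ADAMTS-like genes were called in both comparisons, 1 higher and 4 lower. Adamtsl1 (punctin) had 9.62, 9.50 and 9.35 in 0F, 7.19 and 6.95 in GMT, and 7.45, 7.62 and 7.11 in NGMT, and at -2.42 (SE 0.13, adjusted p = 9.23e-14, 5.35-fold) it had the largest fall of all members in GMT. Adamtsl3 had 10.13, 10.02 and 9.98 in 0F, 8.48 and 8.09 in GMT, and 9.13, 8.97 and 8.58 in NGMT, with differences of -1.75 (SE 0.18) and -1.15 (SE 0.16). Its NGMT arrays all lay between those of the other groups. Adamtsl2 and Adamtsl4, which bind fibrillin, fell by 0.74 and 0.47 in GMT. Adamtsl5 alone went the other way, from 8.25, 8.19 and 8.20 in 0F to 9.67 and 9.60 in GMT and 9.39, 9.39 and 9.42 in NGMT, higher by 1.42 (SE 0.07, adjusted p = 1.26e-14) and 1.19 (SE 0.06, 3.75e-14).

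**Figure D3:**
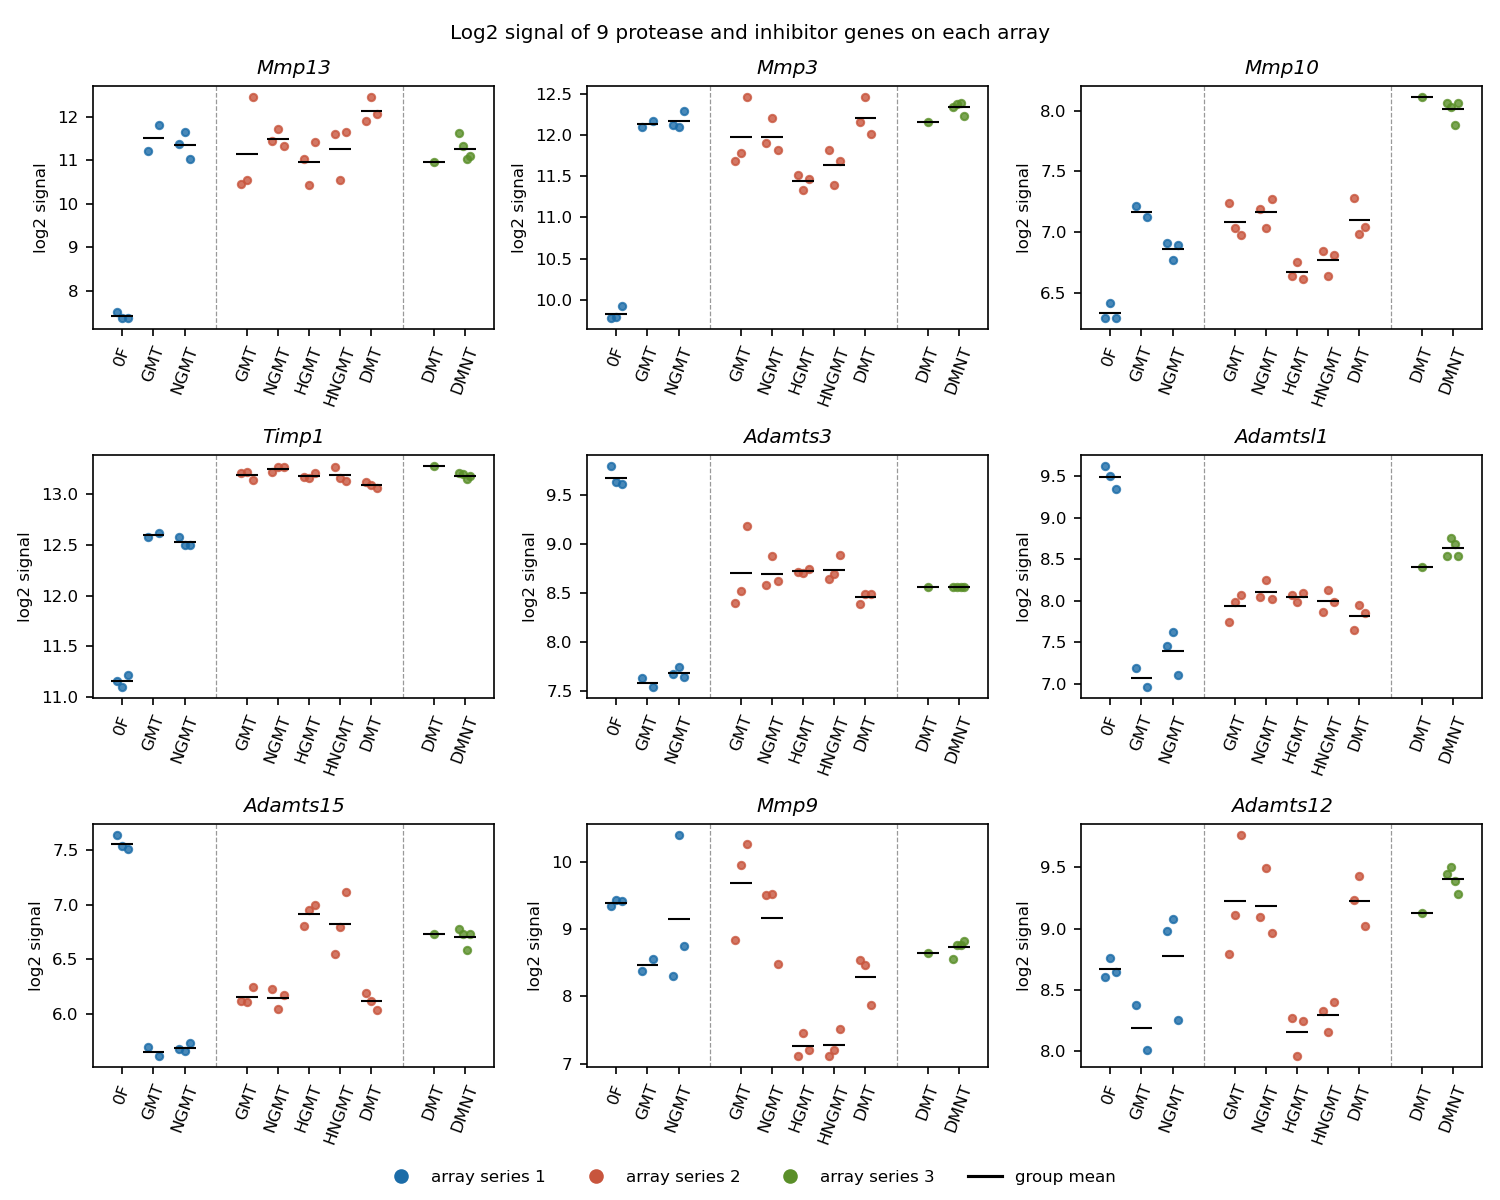
Log2 signal (y axis, 1 scale per panel) on each array by group (x axis) for 9 genes; points are arrays coloured by array series, short lines are group means, and dashed lines part the series, whose levels are not compared. In series 1 the 0F arrays stand clear of GMT and NGMT for Mmp13, Mmp3, Mmp10, Timp1, Adamts3, Adamtsl1 and Adamts15, and in series 2 HGMT and HNGMT stand low for Mmp9 and Adamts12 and high for Adamts15.

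Other proteases of the matrix were divided too. Of the plasminogen system, whose protease plasmin activates pro-MMPs, Serpinb2 (2.20) and the urokinase receptor Plaur (1.91) rose in GMT, 2 of 5 tested genes, and none fell. Both lay below the array median on every 0F array and so passed the filter only through groups where they are high. Among other regulators of MMPs, 5 of 9 rose and 1 fell, with Cd44, which anchors MMP9 to the cell surface, at 2.58, Sdc4 at 1.06 and the convertase Pcsk6 at -1.35. The membrane inhibitor Reck rose by 0.44. Of 10 ADAM proteases 3 rose and 6 fell, led by Adam12 (-2.72) and Adam23 (-2.46), and the sheddase Adam9 rose by 1.05. The 10 tested cathepsins split evenly, 5 higher and 5 lower, with Ctsc at 1.32, Ctsk at -0.87 and Ctsh at -0.74. Of 9 procollagen-processing and serine proteases 3 rose and 4 fell, with Htra3 at -2.04, fibroblast activation protein (Fap) at -1.94 and Pcolce2 at 0.77. Versican (Vcan), a substrate of several ADAMTS proteases, rose by 0.81 while Ncan fell by 0.62. Against the same 0F arrays, NGMT had 4 of 5 plasminogen genes higher (Plaur 2.00, Serpinb2 1.92, Plau 0.69), 3 ADAM proteases higher and 6 lower, and 5 cathepsins higher and 5 lower.

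With NKX2.5 added to GMT, few of these genes were called, as were few of all genes tested. In series 1, 1 of 32 tested members was called in NGMT against GMT, where 4.70% of all genes were called: Mmp16 was higher by 0.49 (SE 0.14, adjusted p = 0.0458). That call was lost without any of GMT replicate 1 or 2 or NGMT replicate 1 or 2 (adjusted p of 0.0959 to 0.479), and the count itself went from 1 to 0 without GMT replicate 2 or NGMT replicate 1 or 2 and to 7 without NGMT replicate 3. In series 2, limma called 0 members (0.0328% of all genes), with 1 member at an unadjusted p under 0.05. The TIMP differences in series 1 were -0.07 for Timp1 (95% interval -0.15 to 0.01), 0.08 for Timp2 (-0.05 to 0.21) and 0.05 for Timp3 (-0.08 to 0.19), none of them called. In series 2 they were 0.06 for Timp1 (-0.01 to 0.14), 0.07 for Timp2 (-0.05 to 0.18) and 0.03 for Timp3 (-0.09 to 0.15). The test of the change of the NKX2.5 effect between the series called 0 members (0.639% of all genes), with 7 at an unadjusted p under 0.05. Of the other genes of the pathway, Adam23 rose by 1.29, Tll1 by 0.64 and Plau by 0.57 in series 1, and Il6 fell by 0.93 and Atf3 by 0.60, while none was called in series 2.

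With Hand2 added, the gelatinase Mmp9 and several ADAMTS proteases fell, and Adamts15 and Mmp16 rose. In HGMT against GMT (series 2), 17 of 32 tested members were called, 8 higher and 9 lower, where 23.9% of all genes were called (11.2% higher and 12.7% lower). The median difference was -0.01 over both the tested members and all genes tested. Of the 27 members above the median on all arrays, 13 were called. In HNGMT against NGMT, on other arrays of the same series, 11 were called, 2 higher and 9 lower, where 28.5% of all genes were called (7.67% higher and 20.9% lower).

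Mmp9 fell most. Its log2 signal was 8.84, 9.96 and 10.27 in GMT and 7.12, 7.45 and 7.20 in HGMT, and 9.51, 9.52 and 8.48 in NGMT against 7.11, 7.21 and 7.51 in HNGMT. The arrays without Hand2 were widely spread, yet each lay above all 6 arrays with Hand2. It fell by 2.44 (SE 0.38, adjusted p = 3.21e-05, 5.41-fold) without NKX2.5 and had -1.89 (SE 0.38, 6.54e-04, 3.72-fold) with it. The mean of the macrophage markers, a cell type known to make MMP9, was 6.08 to 6.16 in GMT and 6.06 to 6.10 in HGMT, with 12 of 15 and 13 of 15 markers below the array median on every array, the lysozyme gene Lyz2 and Adgre1 among them. In HNGMT the mean was 6.23 to 6.96 against 6.07 to 6.40 in NGMT, with 9 of 15 and 12 of 15 below it on every array, and the array ranges overlapped. Of 11 macrophage markers tested, 2 were called lower and none higher in HGMT against GMT. In HNGMT against NGMT 5 were called higher and none lower. The part of these cells in the difference of Mmp9 was not tested.

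Of the ADAMTS proteases, Adamts12 had 8.80, 9.11 and 9.76 in GMT and 8.27, 7.96 and 8.24 in HGMT, and 9.10, 9.49 and 8.96 in NGMT against 8.33, 8.16 and 8.40 in HNGMT. No array with Hand2 reached one without it, and the gene fell by 1.07 (SE 0.20, adjusted p = 3.30e-04) and by 0.89 (SE 0.20, 0.00212). Adamts6 had 8.36 and 8.54 in GMT replicates 3 and 4, a still higher signal in replicate 5, and 7.85, 7.65 and 7.82 in HGMT, and 8.57, 8.84 and 8.38 in NGMT against 8.19, 7.98 and 7.53 in HNGMT. Again no array with Hand2 reached its comparison group, and Adamts6 fell by 0.86 and 0.70, Adamts1 by 0.64 and 0.66, and Adamts5 by 0.41 and 0.54, the first of these not called without GMT replicate 4 (-0.31, adjusted p = 0.0503). Adamts14, a procollagen protease, fell by 0.40 and 0.38. In the opposite direction, Adamts15 had 6.11, 6.11 and 6.25 in GMT and 6.81, 6.95 and 7.00 in HGMT, and 6.23, 6.05 and 6.17 in NGMT against 6.55, 6.79 and 7.11 in HNGMT. All 6 arrays with Hand2 lay above all 6 without it, and Adamts15 rose by 0.76 (SE 0.09, adjusted p = 1.33e-06) and, with NKX2.5, by 0.67 (SE 0.09, 1.12e-05). The gene lay below the array median on every GMT and NGMT array and was tested only through 0F and some arrays with Hand2, where it is high. Mmp16 had 8.07, 8.23 and 8.64 in GMT and 8.76, 8.82 and 8.87 in HGMT, and 8.39, 8.41 and 8.03 in NGMT against 8.92, 8.87 and 8.79 in HNGMT. It rose by 0.50 and 0.58, with no overlap in either comparison. Mmp10 fell by 0.41 and 0.40 to values below the array median on every HGMT and HNGMT array, and Adamtsl5 fell by 0.34 and 0.35. Mmp10 passed the filter only through other groups, where it is high.

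A further 7 members, 41.2% of the 17, were called without NKX2.5 and not with it, where 35.4% of all genes called in the first comparison were, and the test of that difference called none of the 7. Mmp23 (0.38), Adamts10 (0.35), Adamtsl2 (0.31), Adamtsl4 (0.30), Adamts9 (0.28) and Timp3 (0.27, adjusted p = 0.00122) rose, and Mmp3 fell by 0.54, from 11.68, 11.78 and 12.46 to 11.51, 11.33 and 11.46. The fall of Mmp3 rested on GMT replicate 5, without which it was -0.29 (adjusted p = 0.0840). Leaving out 1 array also ended 4 of the small rises. Adamts10 and Adamtsl2 were not called without GMT replicate 3 or 4 or any 1 of the 3 HGMT arrays (adjusted p of 0.0608 to 0.272 and 0.0654 to 0.186), Adamtsl4 not without GMT replicate 3 or 5 or HGMT replicate 1 or 3 (0.0580 to 0.131), and Adamts9 not without GMT replicate 3 or 4 or HGMT replicate 3 (0.0553 to 0.0943). Mmp13 was not called in either comparison (-0.19, 95% interval -0.96 to 0.57, and -0.23, -0.99 to 0.54). Timp1 differed by -0.01 in HGMT against GMT (-0.08 to 0.07) and by -0.07 in HNGMT against NGMT (-0.14 to 0.01), and Timp2 by 0.04 in the former (-0.08 to 0.16). Timp2 was called lower in HNGMT, by 0.15 (adjusted p = 0.0444), with HNGMT replicate 1 at 12.14 against 12.48 and 12.50 in the others. Without that array the difference was -0.04 (adjusted p = 0.366), and the call was also lost without any 1 of the NGMT arrays (0.0653 to 0.122). Timp3 had 0.08 in HNGMT against NGMT (-0.04 to 0.20). Without HNGMT replicate 1, Timp3 was called at 0.19 (adjusted p = 0.00166) and Timp1 at -0.11 (adjusted p = 0.0204).

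The effects of Hand2 without and with NKX2.5 were set side by side. The 2 comparisons share no arrays. Of the called members, 10 were called in both, all 10 with the same sign, which is 58.8% of the 17 of the first and 90.9% of the 11 of the second. Over all genes tested, 1885 were called in both, 1884 of them with the same sign. The 1885 were 64.6% of those called in the first and 54.1% of those called in the second. Over the 32 tested members the differences had the same sign in 27 (84.4%), against 71.9% of all genes tested. The Pearson r over the members was 0.975 (Spearman 0.94), against an r of 0.862 over all genes tested, given as a description across genes of 1 array series. The test of the difference between both effects called 0 members and 0 of all genes by limma (0%), with 3 members at an unadjusted p under 0.05 (Mmp28, Timp2 and Timp3). HNGMT against HGMT likewise gave 0 called members (0.491% of all genes called, 7 members at an unadjusted p under 0.05), a count that became 4 without HNGMT replicate 2 and 8 without HNGMT replicate 3. Its TIMP differences were 0.00 for Timp1 (-0.07 to 0.08), -0.13 for Timp2 (-0.25 to -0.01) and -0.15 for Timp3 (-0.27 to -0.03), none of them called. Timp2 and Timp3 were called lower without HNGMT replicate 2 (-0.18 and -0.20) or replicate 3 (-0.19 and -0.21).

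**Figure D4:**
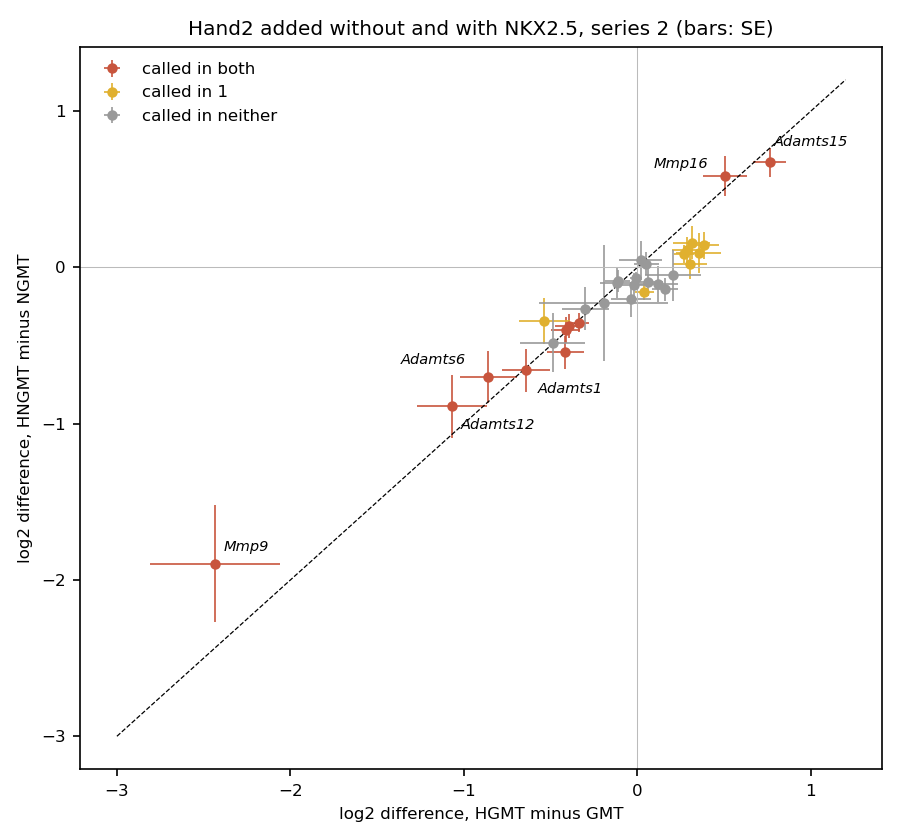
Log2 difference of HNGMT minus NGMT (y axis) against HGMT minus GMT (x axis) for the 32 tested genes in series 2, with SE bars and a dashed line of equality; colours give whether a gene was called in both, in 1 or in neither comparison, and 6 of the 10 called in both are named. Mmp9 lies far out at -2.44 and -1.89, and Adamts15 and Mmp16 lie at the opposite end.

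In the plasminogen system most called genes fell with Hand2. The urokinase gene Plau fell by 0.94 and 0.85, Plaur by 0.56 and 0.71 and Serpinb2 by 0.83 and 0.60 (without and with NKX2.5), 3 of 5 tested genes, while Plat rose by 0.39 and 0.31. Among AP-1 and ETS factors 3 of 13 fell and 1 rose in HGMT, and 7 fell and none rose in HNGMT, with Atf3 at -1.27 and -1.01. The inducer Lif fell by 0.48 and 0.57, and Il6 rose by 1.09 in HNGMT. Of other regulators of MMPs, Reck rose by 0.61 and 0.44, Pcsk6 by 0.71 and 0.41, and Pcsk5 fell by 0.86 and 1.19. Among ADAM proteases, 3 of 10 rose in HGMT and none fell, with Adam22 at 0.84. The procollagen enhancer Pcolce2 rose by 3.32 and 2.95 and Htra4 by 2.11 and 1.75, while Tll1 fell by 1.07 and 1.03. All 8 adipocyte markers were higher in HGMT than in GMT (median 1.05), their mean being 9.25 to 9.56 against 8.18 to 8.54, and 6 of 8 were higher in HNGMT than in NGMT (median 0.51). Both endothelial markers tested, of 6 listed, were higher in either comparison (medians 1.17 and 0.97). All 6 lay below the array median on every GMT and NGMT array, so that the filter favoured these rises. Of 10 cardiac muscle markers 5 were lower and 1 higher in HGMT, and 4 lower and 1 higher in HNGMT. Of 6 mesothelial markers 3 were higher in each, with 1 lower in HGMT and 2 in HNGMT. Of 11 macrophage markers 2 were lower in HGMT and 5 were higher in HNGMT. Their part in these differences was not tested.

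With MYOCD in place of GATA4, Mmp9 was again called lower, and members were called at about the share of all genes. In DMT against GMT (series 2), 6 of 32 tested members (18.8%) were called, 1 higher and 5 lower. Of all genes 17.3% were called, 9.11% higher and 8.15% lower. The median difference was -0.08 over the tested members and 0.01 over all genes tested. Mmp9 had 8.54, 8.46 and 7.86 in DMT against 8.84, 9.96 and 10.27 in GMT. The DMT arrays all lay below the GMT arrays, and Mmp9 fell by 1.40 (SE 0.38, adjusted p = 0.00946, 2.64-fold). That call was lost without DMT replicate 3 (-1.19, adjusted p = 0.0656), GMT replicate 4 (-1.27, 0.0505) or GMT replicate 5 (-1.11, 0.0632). Mmp16 fell by 0.38, Adamts7 by 0.33, Mmp19 by 0.31 and Adamtsl4 by 0.31, and Mmp28 rose by 0.31. Without DMT replicate 3 or GMT replicate 4, Mmp16, Adamts7 and Adamtsl4 were not called either (adjusted p of 0.0531 to 0.250), nor was Mmp16 without DMT replicate 2 (0.0834) or GMT replicate 5 (0.269), nor Adamtsl4 without DMT replicate 2 (0.151) or GMT replicate 3 (0.0781). The count ran from 3 without DMT replicate 3 or GMT replicate 4 to 10 without GMT replicate 5, the array that had the highest Mmp13, Mmp3 and Mmp9 of its group in series 2.

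Mmp13 had 11.91, 12.45 and 12.06 in DMT and 10.46, 10.55 and 12.45 in GMT, so that GMT replicate 5 reached the highest DMT array and the difference of 0.99 was not called (SE 0.37, adjusted p = 0.0742). The TIMP differences were -0.10 for Timp1 (95% interval -0.17 to -0.03, adjusted p = 0.0559, called without GMT replicate 5 at -0.12, adjusted p = 0.0275), -0.04 for Timp2 (-0.15 to 0.08) and -0.09 for Timp3 (-0.21 to 0.03). Of the other genes of the pathway, aggrecan (Acan) rose by 1.60 and Htra1 by 1.30, and Il6 fell by 1.35, Adam8 by 0.67, Pcsk5 by 0.64 and Vcan by 0.47. Acan lay below the array median on every array of 0F and GMT and passed the filter only through other groups, so that the filter favoured its rise. Plau rose by 0.37. Smooth muscle markers were higher for all 5 genes tested (median 2.55), and 6 of 8 adipocyte markers were lower (median -0.68). Their part in these differences was not tested.

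DMNT could be compared with DMT only in series 3, against 1 array of DMT. The spread behind these intervals and calls was pooled over all groups, the lone DMT array being assumed to vary like the others, so they say little about NKX2.5. No member was called by limma (0.0655% of all genes called, 1 member at an unadjusted p under 0.05), and the differences lay between -0.10 and 0.38. Mmp13 was 10.95 in DMT replicate 4 and 11.61, 11.33, 11.02 and 11.09 in DMNT. Mmp9 was 8.64 in DMT replicate 4 and 8.55, 8.77, 8.77 and 8.82 in DMNT, a range that includes the DMT value. The TIMP differences were -0.09 for Timp1 (-0.19 to 0.01), -0.02 for Timp2 (-0.18 to 0.14) and -0.07 for Timp3 (-0.23 to 0.10). Adamts3, Adamts16 and Timp4 held 1 identical value on all 5 arrays of this series.

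**Figure D5:**
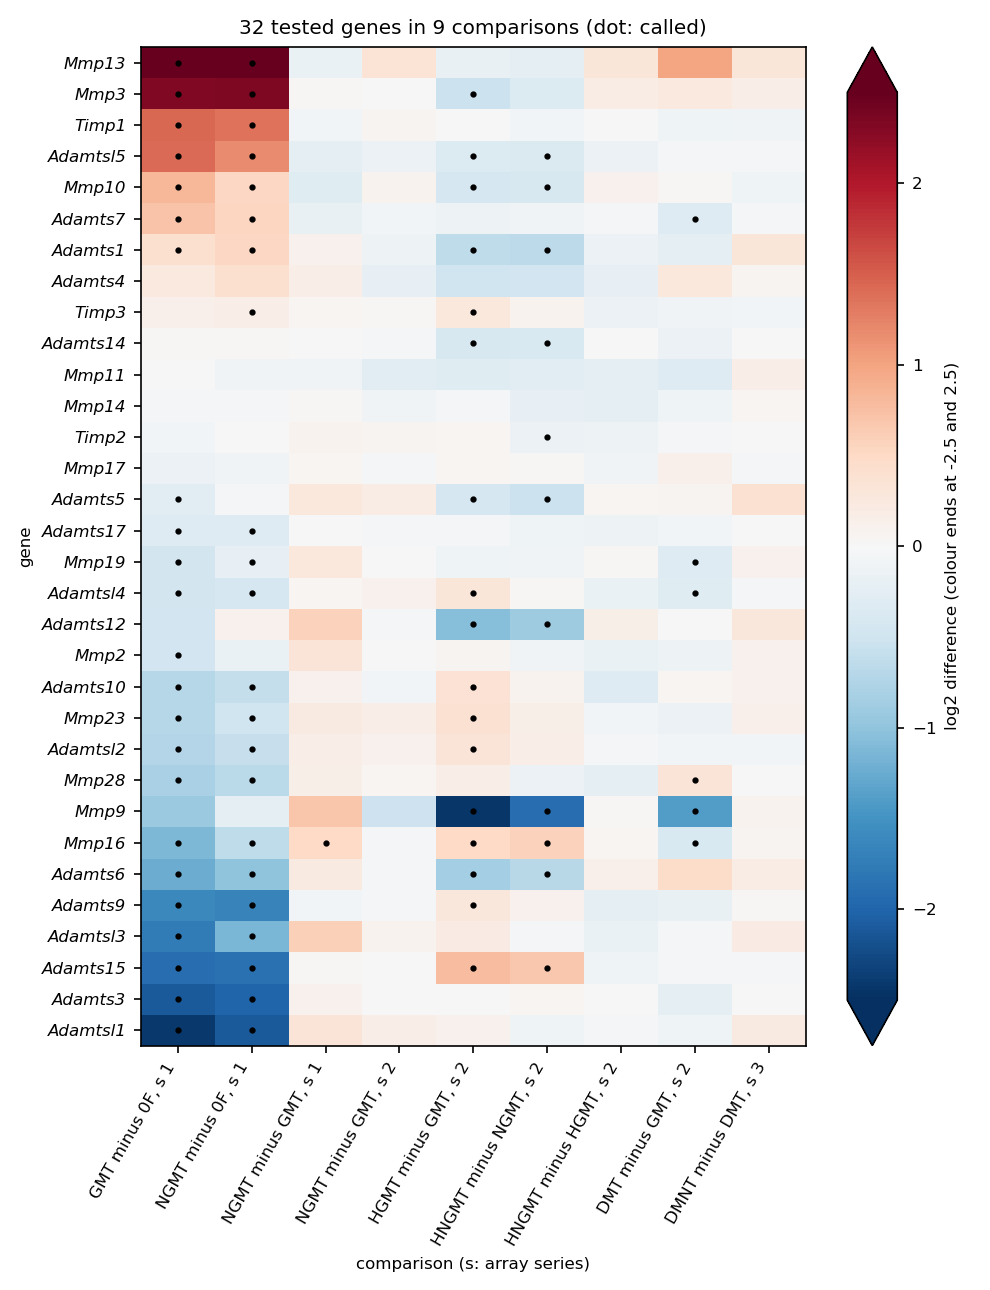
Log2 difference (colour, red higher and blue lower in the group named first) of the 32 tested genes (y axis, ordered by GMT minus 0F) in 9 comparisons (x axis), with a dot where a gene was called. The comparisons with 0F hold 23 and 22 dots, those that add Hand2 17 and 11, and those that add NKX2.5 1, 0 and 0, while DMNT against DMT, with 0, rests on 1 DMT array.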

How the data were processed

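Total RNA of 28 mouse cultures was hybridized to expression arrays. The authors deposited 1 matrix of 35556 probe sets as log2 signal. MAS5 is the only tool named in the submitters' processing notes, its version and scaling being not given in the sources used here, and 0 columns were left unused. Groups were taken from the sample titles. The labels state independent biological replicates. Array series were read from the sorted values of each array (largest distance within a series 0.0486 log2, smallest between series 0.135). They are not named in the labels, and their cause is unknown.

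Probe sets with 1 gene symbol (21789, against 1621 with several and 12146 with none) gave 19938 genes. Genes above the array median on at least 3 arrays were tested, which left 12211. Differences were fitted with limma 3.58.1 (R 4.3.3) as 10 means of group and series over 28 arrays (18 residual degrees of freedom, eBayes with trend, two-sided). P-values were adjusted by Benjamini-Hochberg over all genes tested in each comparison, and a gene was called at an adjusted p under 0.05. The fit was tested on simulated data. The number of arrays limits the precision. Alternatives included the mean of all probe sets of a gene, a replicate block, other filters and normalizations, and each array left out. The added alternative, a fit without series 3, was chosen after seeing the data.

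The members, the pathway and marker lists and the tests were chosen with earlier results of these data known. The text names all TIMPs, called members by size (6 rises and 6 falls), and up to 3 called genes per pathway list in each comparison, and further members beyond this rule were chosen after their values were seen. Promoter letters come from RefSeq windows on GRCm38.p6, and all 49 symbols matched RefSeq.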

Additional observations from a re-analysis of the deposited data

Results flagged for a closer look

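DMNT was the only group with 4 or more arrays in 1 series. In 14 of 49 genes (28.6%) 1 of its 4 arrays was flagged by Dixon's ratio, where chance gives about 5%. The ratio sets the gap against the range of the arrays, so that the gap itself can be very small, as for Mmp17 (7.6529 against 7.6565). In 8 of the 14 the other arrays held 1 identical value, so that any deviation counts. DMNT replicate 3 stood low for Adamts13 (6.92), Adamts18 (7.12), Adamts19 (6.68) and Mmp12 (6.56) and high for Mmp1b (5.12). DMNT replicate 1 stood high for Adamts14 (7.88) and Mmp14 (11.72) and low for Mmp17 (7.65) and Mmp28 (8.50). DMNT replicate 2 stood high for Adamts6 (9.73) and Mmp11 (9.75) and low for Mmp8 (5.33). DMNT replicate 4 stood high for Adamts8 (7.30) and Mmp21 (6.50).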

How the results depend on the processing

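No called difference changed its direction under any alternative run. The counts of called members for GMT and NGMT against 0F (23 and 22), for HGMT against GMT (17) and for both interaction tests (0) stayed within 1.5 times under each. Single calls were lost all the same. With only the arrays of series 2, HGMT against GMT no longer had Adamts10 (adjusted p = 0.0630 by limma), Adamts9 (0.0722), Adamtsl2 (0.0653), Adamtsl4 (0.117) or Mmp3 (0.0548). NGMT against GMT in series 1 went from 1 to 2 after quantile normalization, to 4 with only the arrays of the series, to 0 without series 3 and to 0 to 7 when 1 array was left out. In series 2 it went from 0 to 1 with group and series as additive terms. DMT against GMT went from 6 to 3 with only the arrays of series 2, and to 3 to 10 when 1 array was left out. DMNT against DMT went from 0 to 2 with only the arrays of series 3, and HNGMT against HGMT from 0 to between 0 and 8 when 1 array was left out. The cause was not tested. Without the arrays of series 3, HGMT against GMT lost the calls of Adamts10 (adjusted p = 0.0788 by limma), Adamtsl2 (0.0535) and Adamtsl4 (0.0517). HNGMT against NGMT then lost Timp2 (0.0693), and DMT against GMT lost Mmp16 (0.0524) and Adamtsl4 (0.0626). Without DMT replicate 4 there is no value for DMNT against DMT. Replicate numbers did not pair the samples (7 of 21 same-numbered pairs had deviations correlated over 0.1, range -0.257 to 0.408). The HNGMT and NGMT arrays of series 2 share no replicate number, so a block compares them only through other arrays and cannot test pairing there. A replicate block moved the count to 4 for NGMT against GMT in series 1 and to 6 for HNGMT against NGMT, where Mmp9 (-1.55, adjusted p = 0.0562 by limma), Adamts1 (0.132), Adamts12 (0.103), Adamtsl5 (0.0789) and Timp2 (0.437) were no longer called. With the block DMT against GMT had 4 called members, of which Mmp19 alone was shared with the 6: Mmp9 (0.124), Mmp16 (0.0814), Adamts7 (0.274), Adamtsl4 (0.155) and Mmp28 (0.0874) were lost, and Adamts4, Adamts6 and Mmp13 were called. In HGMT against GMT it ended 3 of 17 calls (Adamts10, Adamtsl4 and Mmp3), and against 0F it ended none. The 17 genes below the array median on every array had no test, and Timp1 in DMT against GMT was called with additive terms (-0.13) and after quantile normalization (-0.10).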
